A study of Mus musculus with 4 samples.

Results

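The genes described here encode the nuclear-encoded subunits of the mitochondrial oxidative phosphorylation system, with the assembly factors and tissue isoforms that share their gene names. They were chosen by symbol alone, as rows starting with Nduf (complex I), Sdh (complex II), Uqcr (complex III), Cox4 to Cox8 (complex IV) or Atp5 (complex V). The rule found 94 of the 24016 rows of the gene table, and 90 of them reached a mean of 1 CPM (counts per 1000000 counts of a library) over the libraries: 45 of 45 in complex I, 6 of 6 in complex II, 8 of 8 in complex III, 14 of 18 in complex IV and 17 of 17 in complex V. RNA-seq was done on colon of germ-free C57BL/6 mice that were 7 weeks old. There were 4 libraries, 1 per group, from mice left untreated and from mice given by mouth PBS (phosphate-buffered saline, the vehicle), E. coli or L. rhamnosus GG (LGG, a probiotic lactobacillus). Both bacteria were labelled with an equal dose, the gavaged groups held 4 mice each, and 4 cm of colon was taken 4 hours after gavage. The sources used here do not state whether a library pools the RNA of a group's mice, or how many untreated mice there were. All mice lacked a resident microbiota, so every group is a model of a gut meeting no bacteria or 1 kind of bacteria, and a single library per group leaves differences between conditions and between mice or preparations impossible to tell apart.

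Oxidative phosphorylation makes ATP in the inner mitochondrial membrane. Complexes I and II take electrons from NADH and succinate, complexes III and IV pass them through cytochrome c to oxygen, and complex V, the ATP synthase, uses the proton gradient that complexes I, III and IV build. The catalytic centres of the complexes are core subunits, and many small accessory subunits surround them. The nucleus encodes the accessory subunits and part of the core subunits, and mitochondrial DNA encodes the others. The colon epithelium is known as a tissue that relies on this pathway to burn butyrate made by gut bacteria, a fuel that germ-free animals largely lack.

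The tissue label was checked with marker genes. All 6 colonocyte markers and all 6 goblet cell markers were expressed, with summed levels of 6312 to 8695 CPM and 21903 to 24381 CPM over the libraries. Smooth muscle markers, from the muscle coat of a whole piece of colon, summed to 10450 to 12405 CPM, the latter in the untreated library. The libraries held 27220697 (untreated), 16289580.0 (PBS), 29368008 (E. coli) and 29899371 (LGG) counts, so values from the PBS library carry the widest counting error. Levels are CPM after scaling by trimmed mean of M-values (TMM) factors, and each log2 ratio is followed in parentheses by its 95% counting interval, which covers counting error only.

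The genes of this system took 1.80% of all counts in the untreated library (95% Clopper-Pearson interval 1.792 to 1.802%), 1.80% in the PBS library (1.789 to 1.802%), 1.82% in the E. coli library (1.814 to 1.824%) and 1.92% in the LGG library (1.913 to 1.923%). The LGG library had the highest share, and the intervals of the untreated and PBS libraries overlapped. At the level of single genes, LGG was the highest of the 4 libraries for 79 of the 90 genes, where it was the highest for 24% of all 14450 genes tested. Untreated was the highest for 5 genes (33.6% of all genes), PBS for 2 (20.2%) and E. coli for 4 (22.2%). LGG led in 41 of 45 genes of complex I, 5 of 6 of complex II, 7 of 8 of complex III, 11 of 14 of complex IV and 15 of 17 of complex V. The untreated library was the lowest for 66 of the 90 genes (34.2% of all genes), PBS for 19 (20.8%), E. coli for 4 (21.4%) and LGG for 1 (23.6%). The differences were small: the highest library exceeded the lowest by a median of 1.18-fold, beside 1.19-fold for all genes tested, and by 1.5-fold or more in 1 of 90 genes, Cox7a1, against 13.6% of all genes. All genes tested reach down to a mean of 1 CPM, where counting error widens the range, and they were not matched to the list in level. LGG was thus the highest library for most of the list, while the order of the other libraries varied from gene to gene. With library totals in place of TMM factors, LGG was still the highest for 70 genes, but the untreated library was the lowest for 34 and PBS for 40. The shares of all genes were not taken under that scaling, so these counts cannot be set against the shares above.

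**Figure D1:**
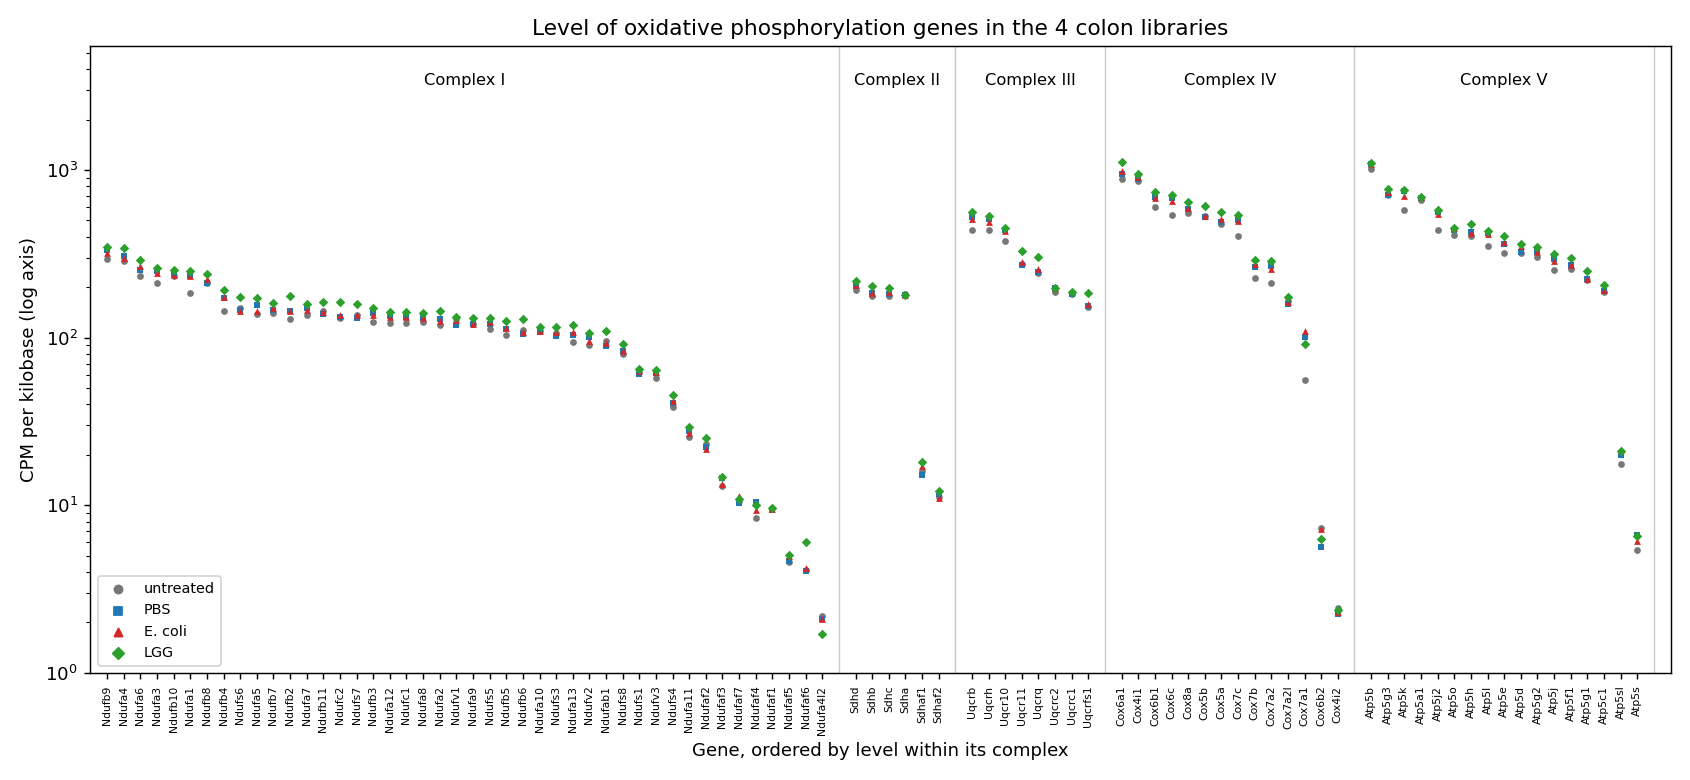
Level of the tested genes in each library, with 1 core subunit of complex I left out, in CPM per kilobase of listed transcript length on a log axis, ordered by mean level within each complex; each point is 1 library. The LGG points lie on top for most genes, and the lowest genes of complexes I, II and V are assembly factors, Ndufa4l2 and the related proteins Atp5s and Atp5sl.

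Per kilobase, complex V contributed 32.0% of the summed level of all 94 genes in the untreated library, complex IV 27.4%, complex I 25.4%, complex III 11.4% and complex II 3.76%. In the LGG library the same shares were 31.4%, 28.2%, 25.3%, 11.5% and 3.48%. The make-up of the system by complex was thus nearly the same in both. Atp5b, the catalytic beta subunit of ATP synthase, had the highest mean level per length (1074 CPM per kilobase), followed by Cox6a1 (985) and Cox4i1 (901), small nuclear subunits of cytochrome c oxidase. The highest gene of complex I, Ndufb9, reached 323 CPM per kilobase. The 4 subunits of complex II lay close together, from 179.6 for Sdha to 206 for Sdhd. Assembly factors, which help build a complex and are not part of it, ranged from 4.63 for Ndufaf6 to 23.1 CPM per kilobase for Ndufaf2, and the subunit Ndufa11 lay just above them at 27.4.

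The first comparison, PBS against untreated, sets gavage with the vehicle beside no treatment. The median log2 ratio of the 90 genes was 0.08, with 67 of 90 above 0, where 50.3% of all genes tested were above 0 and the median of all genes was 0.00. A gene was counted as past the size rule when it differed by at least 25% (0.32 on the log2 scale, in either direction) and its counting interval excluded 0. That held for 6 genes, all higher in PBS, which is close to the 6.19% of all genes that were past the rule in that direction, and for 0 genes in the lower direction, where 9.1% of all genes were. The 6 were Cox7a1, Atp5k, Atp5j2, Cox7a2, Ndufa1 and Cox6c, all with transcripts under 1000 bases. With library totals in place of TMM factors the median of all genes moved by -0.09, and 41 of the 90 genes were above 0 with a median of -0.01, so the sign of these ratios depends on the scaling, while the median of the list lay 0.08 above that of all genes under both. Every ratio against the untreated library that follows is lower by about that amount with library totals. Shares of all genes above 0 or past the rule were taken with TMM factors only.

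LGG against PBS, the comparison of the lactobacillus with its vehicle, gave a median of 0.12 with 86 of 90 genes above 0, against 49.3% of all genes. The exceptions below 0 were Ndufa4l2, Ndufaf4, Cox7a1 and Atp5s, whose intervals all include 0. Ndufaf6 alone was past the size rule, beside 3.08% of all genes higher and 2.95% lower. E. coli against PBS gave a median of 0.01, with 55 of 90 above 0, where 50.7% of all genes were, and 0 genes past the size rule, beside 1.41% of all genes higher and 2.57% lower. In the E. coli library the system thus stood close to the PBS level. LGG against E. coli gave a median of 0.11, with 84 of 90 above 0 against 49.9% of all genes, and again only Ndufaf6 was past the rule (3.86% of all genes higher and 3.25% lower). These comparisons share libraries, so they are not independent of each other. All genes tested were not matched to the list in transcript length or level, and shares above 0 by length band are given below.

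Against the untreated library, LGG stood further away. The median was 0.21, 85 of 90 genes were above 0 where 49.7% of all genes were, and 16 genes were past the size rule, all higher, beside 6.48% of all genes higher and 10.8% lower. Of these genes 5 belong to complex IV besides Cox7a1 (Cox6a1, Cox6c, Cox7a2, Cox7b and Cox7c), 6 to complex I (Ndufa1, Ndufa5, Ndufa13, Ndufaf6, Ndufb2 and Ndufb4), 1 to complex III (Uqcrb) and 3 to complex V (Atp5e, Atp5j2 and Atp5k). E. coli against untreated gave a median of 0.08, 74 of 90 above 0 where 51% of all genes were, and 3 genes past the rule (Cox7a1, Ndufa1 and Atp5j2), beside 7.31% of all genes higher and 12% lower. With library totals the median of LGG against untreated was 0.11 while that of all genes was -0.10, with 77 genes above 0 and 5 past the rule. For E. coli against untreated the median was 0.00 while that of all genes was -0.08, with 45 genes above 0 and 1 past the rule. The shares of all genes above 0 or past the rule were not taken with library totals, and the shares above do not apply to these counts. The list lay above the median of all genes by 0.21 for LGG and by 0.08 for E. coli under both scalings. A 2-fold difference was reached by 0 of the 90 genes in all 6 comparisons, where among all genes tested 0.664% were higher and 0.782% lower in PBS against untreated, 0.457% and 0.588% in LGG against untreated, 0.824% and 1.53% in E. coli against untreated, 0.18% and 0.0969% in LGG against PBS, and 0.173% and 0.242% in E. coli against PBS. For LGG against E. coli those shares were 0.263% and 0.0969%.

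**Figure D2:**
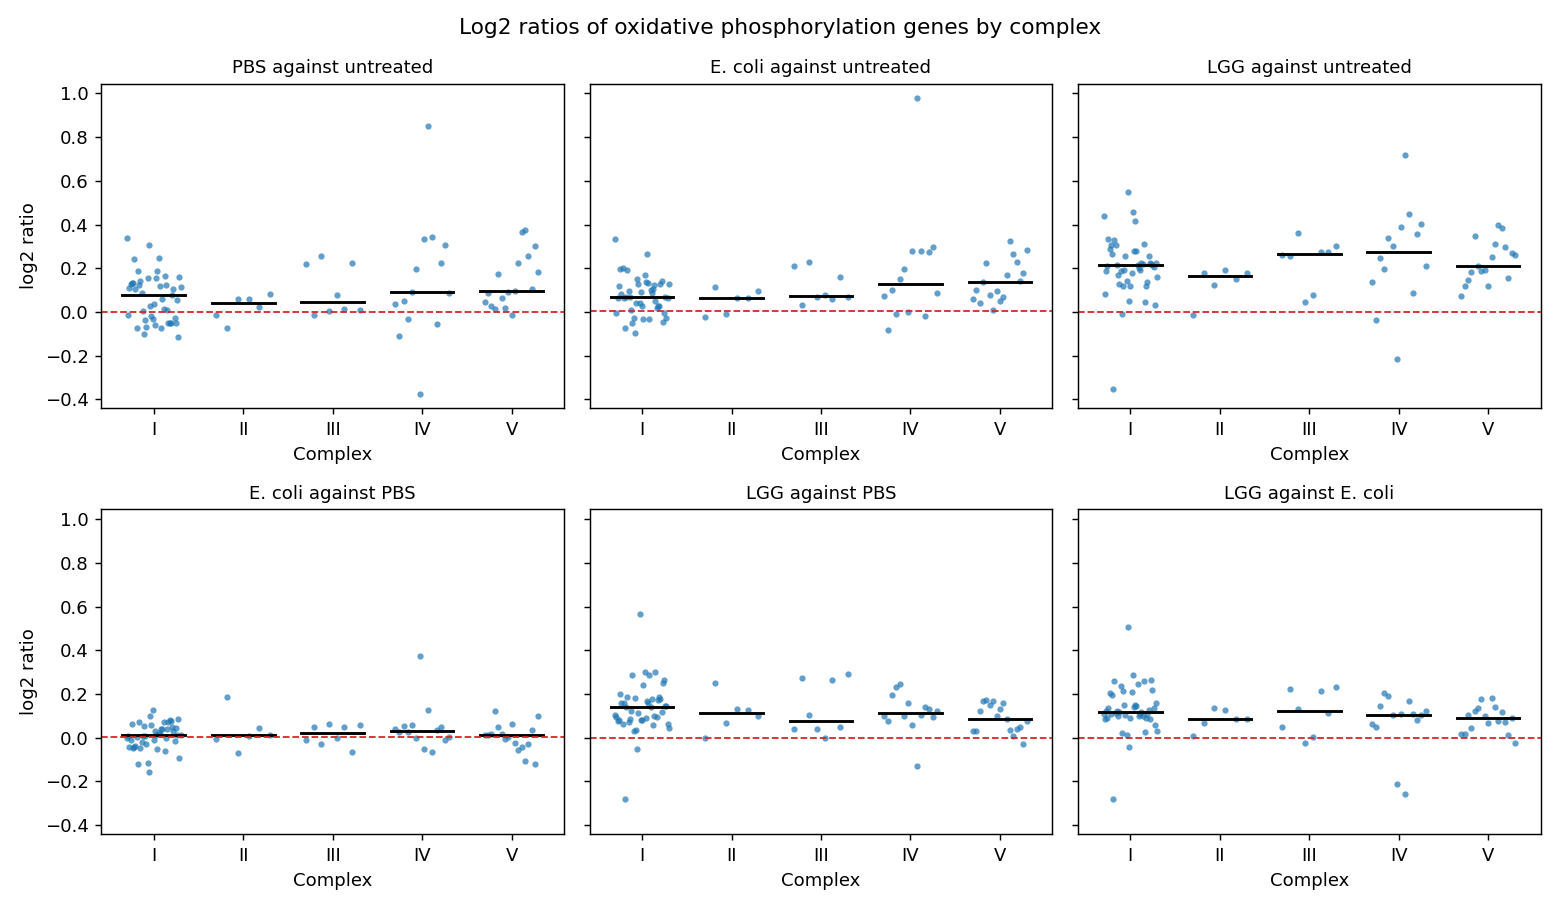
Log2 ratio of each tested gene by complex in the 6 comparisons; each point is a gene, the black bar is the median of the complex and the red dashed line the median of all 14450 genes tested. The medians of all 5 complexes lie above 0 in LGG against PBS and in LGG against untreated, and near 0 in E. coli against PBS.

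Complex I, NADH dehydrogenase, is the largest of the complexes and the entry point for electrons from NADH. Its median was 0.08 for PBS against untreated and 0.07 for E. coli against untreated, both negative with library totals. It was 0.14 for LGG against PBS, 0.01 for E. coli against PBS, 0.12 for LGG against E. coli and 0.21 in LGG against untreated. The flavoprotein subunit Ndufv1, which receives the electrons of NADH, measured 206 CPM (untreated), 191 (PBS), 202 (E. coli) and 211 CPM (LGG). Its PBS level was the lowest of the libraries and it gave the lowest ratio of the complex for PBS against untreated, -0.12 (-0.18 to -0.05). The iron-sulfur subunit Ndufs1 measured 182 CPM (untreated), 175 (PBS), 184 (E. coli) and 188 CPM (LGG). PBS was again the lowest library and LGG the highest, with a ratio for LGG against PBS of 0.10 (0.03 to 0.16). Ndufs1 shares bases with the row of the long non-coding Ino80dos, and no source used here states if reads were counted by strand.

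Accessory subunits of complex I stood further above the untreated level than the core subunits did. Ndufa1, a small membrane subunit encoded on the X chromosome, measured 90.4 CPM (untreated), 114 (PBS), 114 (E. coli) and 123 CPM (LGG). The untreated library was the lowest and the gavaged libraries lay together, giving the highest ratio of the complex for PBS against untreated, 0.34 (0.25 to 0.42), and for E. coli against untreated, 0.33 (0.26 to 0.41). Ndufb2 measured 57.9 CPM (untreated), 64.6 (PBS), 65.1 (E. coli) and 79.5 CPM (LGG). It was highest in LGG and lowest in the untreated library, and PBS and E. coli had the same level within counting error (0.01, interval -0.10 to 0.12). The ratio for LGG against untreated was 0.46 (0.36 to 0.55). Ndufb4, another membrane arm subunit, had the same order of untreated below the others, with 65.1, 77.1, 78.3 and 86.7 CPM in untreated, PBS, E. coli and LGG. Over complex I the medians for LGG against untreated were 0.22 for the 30 accessory subunits, 0.14 for the 7 core subunits and 0.14 for the 7 assembly factors.

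Ndufaf6, an assembly factor needed early in the building of complex I, had the largest ratio of the 90 genes when LGG was set against PBS or E. coli. It measured 4.41 CPM (untreated), 4.36 (PBS), 4.54 (E. coli) and 6.46 CPM (LGG), from 126, 70, 132 and 189 counts. LGG was highest and the other libraries lay together, with ratios of 0.56 (0.16 to 0.98) against PBS, 0.51 (0.18 to 0.84) against E. coli and 0.55 (0.22 to 0.89) against untreated, each the highest of complex I. This gene has a low level, and a filter at a mean of 5 CPM removes it. Not all assembly factors had that order. Ndufaf7 was highest in E. coli, with 25.9 CPM against 23.7 in PBS, and its ratio of 0.13 (-0.05 to 0.31) was the highest of the complex for E. coli against PBS. Ndufaf4 gave the lowest ratio of the complex in that comparison, -0.16 (-0.30 to -0.01). Ndufaf2 gave the lowest for E. coli against untreated, -0.09 (-0.29 to 0.10). Where LGG was set against each other library, the lowest complex I ratio came from Ndufa4l2, described with the isoforms.

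Complex II, succinate dehydrogenase, is also an enzyme of the TCA cycle, and its 4 subunits are all nuclear-encoded. Its medians were 0.04 for PBS against untreated (negative with library totals), 0.11 for LGG against PBS and 0.01 for E. coli against PBS. For LGG against E. coli the median was 0.08, for LGG against untreated 0.16 and for E. coli against untreated 0.07 (-0.018 with library totals). Sdha, the flavoprotein that oxidises succinate, measured 515 CPM (untreated), 509.7 (PBS), 508 (E. coli) and 509.8 CPM (LGG). It was the steadiest of the 90 genes, with the highest library 1.01-fold above the lowest, and gave the lowest ratio of the complex in LGG against PBS (0.00, interval -0.04 to 0.04), LGG against E. coli (0.01, interval -0.03 to 0.04), LGG against untreated (-0.01, interval -0.05 to 0.02) and E. coli against untreated (-0.02, interval -0.05 to 0.01). The iron-sulfur subunit Sdhb, its partner, measured 189 CPM (untreated), 197 (PBS), 198 (E. coli) and 216 CPM (LGG). Unlike Sdha it was highest in LGG, with a ratio of 0.19 (0.14 to 0.24) against untreated that is the highest of the complex. Sdhd, one of the membrane anchors, gave the highest ratio for PBS against untreated, 0.08 (0.03 to 0.14).

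The assembly factors of complex II, Sdhaf1 and Sdhaf2, act on the iron-sulfur and the flavoprotein subunit. Sdhaf1 measured 15.3 CPM (untreated), 14.6 (PBS), 16.6 (E. coli) and 17.4 CPM (LGG). PBS was its lowest library, and it gave the lowest ratio of the complex for PBS against untreated (-0.07, interval -0.31 to 0.16) and the highest for LGG against PBS (0.25, interval 0.03 to 0.48), E. coli against PBS (0.19, interval -0.04 to 0.42) and E. coli against untreated (0.11, interval -0.08 to 0.30). Of these intervals only that for LGG against PBS excludes 0. Sdhaf2 gave the lowest ratio for E. coli against PBS, -0.07 (-0.22 to 0.08), and the highest for LGG against E. coli, 0.13 (0.01 to 0.26).

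Complex III, the cytochrome bc1 complex, passes electrons from ubiquinol to cytochrome c. Its medians were 0.05 for PBS against untreated (negative with library totals), 0.08 for LGG against PBS and 0.02 for E. coli against PBS. For LGG against E. coli the median was 0.12, for LGG against untreated 0.27 and for E. coli against untreated 0.07 (-0.011 with library totals). The Rieske iron-sulfur protein Uqcrfs1 measured 199.6 CPM (untreated), 201 (PBS), 208 (E. coli) and 242 CPM (LGG). LGG stood above the other libraries, which lay together, and the ratio for LGG against PBS was 0.26 (0.20 to 0.32). The large structural subunit Uqcrc1 measured 297 CPM (untreated), 298 (PBS), 311 (E. coli) and 306 CPM (LGG). Its E. coli level was the highest, so that Uqcrc1 gave the highest ratio of the complex for E. coli against PBS (0.06, interval 0.01 to 0.11) and the lowest for LGG against E. coli (-0.02, interval -0.06 to 0.02) and LGG against untreated (0.04, interval 0.00 to 0.09).

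Small subunits of complex III fell into 2 patterns. Uqcrb, which binds near the quinone site, measured 217 CPM (untreated), 259 (PBS), 254 (E. coli) and 279 CPM (LGG). Untreated was the lowest and the gavaged libraries were all higher, and Uqcrb led the complex in PBS against untreated (0.25, interval 0.20 to 0.31), LGG against untreated (0.36, interval 0.31 to 0.41) and E. coli against untreated (0.23, interval 0.18 to 0.28). Uqcrq measured 121 CPM (untreated), 122 (PBS), 127 (E. coli) and 149 CPM (LGG). Here only LGG stood apart, and Uqcrq led the complex in LGG against PBS (0.29, interval 0.21 to 0.37) and LGG against E. coli (0.23, interval 0.17 to 0.30). Uqcr11 resembled Uqcrq, with 119, 118, 122 and 142 CPM in untreated, PBS, E. coli and LGG, and gave the lowest ratios of PBS against untreated (-0.02, interval -0.10 to 0.07) and E. coli against untreated (0.03, interval -0.04 to 0.10). The hinge protein Uqcrh resembled Uqcrb, with 237, 277, 265 and 286 CPM in the same order of libraries, and gave the lowest ratio for E. coli against PBS (-0.06, interval -0.12 to -0.01). Uqcrc2, the other large structural subunit, gave the lowest ratio for LGG against PBS, 0.00 (-0.04 to 0.05).

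Complex IV, cytochrome c oxidase, reduces oxygen to water; its catalytic subunits are encoded by mitochondrial DNA and are not analysed here, and the nuclear subunits surround them. Its medians were 0.09 for PBS against untreated (-0.000197 with library totals), 0.11 for LGG against PBS, 0.03 for E. coli against PBS, 0.11 for LGG against E. coli, 0.27 for LGG against untreated and 0.13 for E. coli against untreated. Cox4i1, the subunit with the ATP-binding regulatory site, measured 636 CPM (untreated), 652 (PBS), 669.9 (E. coli) and 699 CPM (LGG). Cox5a measured 325 CPM (untreated), 336 (PBS), 349 (E. coli) and 386 CPM (LGG). Both had the same order, from untreated through PBS and E. coli to LGG, with ratios for LGG against untreated of 0.14 (0.11 to 0.17) for Cox4i1 and 0.25 (0.21 to 0.29) for Cox5a. Cox6a1 measured 468 CPM (untreated), 499 (PBS), 519.6 (E. coli) and 592 CPM (LGG). It had that order too and led the complex in LGG against PBS, 0.25 (0.21 to 0.28). Cox5b led in LGG against E. coli, 0.20 (0.16 to 0.25). Cox6c, Cox7a2, Cox7b and Cox7c, all small subunits, were set apart from these by a step between untreated and PBS, as in Cox6c with 269, 338, 326 and 352 CPM and Cox7a2 with 158, 200.2, 192 and 215 CPM in untreated, PBS, E. coli and LGG. Cox7a2 gave the lowest ratio of the complex for E. coli against PBS, -0.06 (-0.13 to 0.00). Cox7a2l, a factor of supercomplexes between complexes III and IV, measured 177, 171, 175 and 188 CPM in the same order.

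Several complex IV subunits exist as pairs in which 1 gene is used in most tissues and the other in heart and skeletal muscle, lung, testis or under low oxygen. Per kilobase, the widely used form was the more abundant in every pair and library. Cox4i1 had a mean of 901 CPM per kilobase and Cox4i2, the lung form that is induced by low oxygen, 2.34. Cox6b1 had 676 and the testis form Cox6b2 6.60, and Cox8a had 594 and the muscle form Cox8b 1.36. Cox6b2 gave the lowest ratio of complex IV for PBS against untreated (-0.37, interval -0.87 to 0.11) and LGG against untreated (-0.21, interval -0.61 to 0.17) and the highest for E. coli against PBS (0.37, interval -0.11 to 0.87), and Cox4i2 the lowest for E. coli against untreated (-0.08, interval -0.69 to 0.52), all with intervals that include 0. Ndufa4, now placed in complex IV by biochemistry, had 309 CPM per kilobase and Ndufa4l2, its low-oxygen relative, 2.02. Ndufa4l2 measured 2.10 CPM (untreated), 1.99 (PBS), 2.00 (E. coli) and 1.64 CPM (LGG), which gave the lowest ratios of the Nduf genes for LGG against PBS (-0.28, interval -0.96 to 0.41), E. coli (-0.28, interval -0.87 to 0.29) and untreated (-0.35, interval -0.94 to 0.21). None of those intervals excludes 0. Ndufa4l2 also shares bases with the row of Shmt2.

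The 4 genes under the filter were all isoforms of complex IV. Cox8b measured 0.561, 0.499, 0.241 and 0.649 CPM in untreated, PBS, E. coli and LGG. The muscle form Cox6a2 was listed at 0.5 counts in 3 libraries and at 2 counts in LGG, and the testis forms Cox7b2 and Cox8c at 0 counts in all libraries, where 3 counts, the limit that a count of 0 allows, are 0.105 CPM in untreated, 0.187 in PBS, 0.103 in E. coli and 0.103 in LGG.

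**Figure D3:**
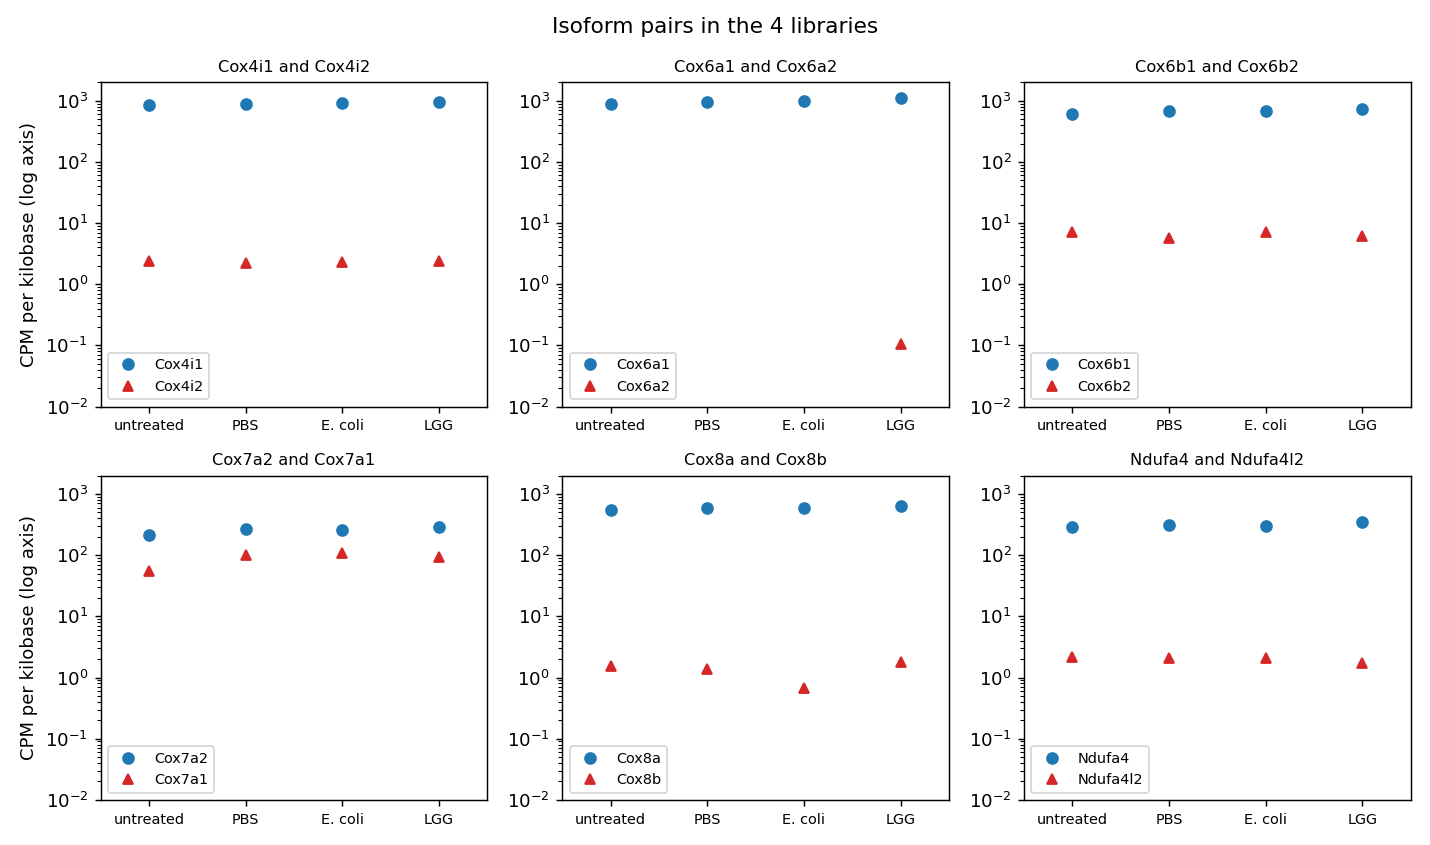
Level of 6 isoform pairs in the 4 libraries, in CPM per kilobase on a log axis; circles are the widely used form and triangles the form of other tissues, and values that round to 0 counts (Cox6a2 in 3 libraries) are not drawn. The pair Cox7a2 and Cox7a1 lies closest together, and the Cox7a1 point of the untreated library lies below those of the others.

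Cox7a1 was the exception among the isoforms and the gene with the widest range of the whole list. It encodes the form of subunit VIIa known from heart, skeletal muscle and brown fat (NM_009944, chromosome 7, 30969190 to 30971049 in mm9, plus strand, a row that overlaps no other). It measured 20.04 CPM (untreated), 36.1 (PBS), 39.5 (E. coli) and 33.0 CPM (LGG), from 572, 580, 1146 and 966 counts. Untreated was the lowest and E. coli the highest, and the highest was 1.97-fold above the lowest. The log2 ratio was 0.85 (0.68 to 1.02) for PBS, 0.98 (0.83 to 1.12) for E. coli and 0.72 (0.57 to 0.87) for LGG, each against untreated. Against PBS it was 0.13 (-0.02 to 0.27) for E. coli and -0.13 (-0.28 to 0.02) for LGG, and LGG against E. coli gave -0.26 (-0.38 to -0.13). Thus Cox7a1 was not among the genes highest in LGG. Per kilobase it stood at 55.7 in the untreated library, beside 211 for Cox7a2, and at 109.6 in the E. coli library, beside 256. Markers of muscle and white fat did not have the order of Cox7a1. The 9 skeletal and cardiac muscle markers, of which 2 were past the filter, summed to 54.8, 39.8, 35.5 and 45.5 CPM in untreated, PBS, E. coli and LGG, 5 white fat markers to 132, 96.6, 62.9 and 128 CPM, and 7 smooth muscle markers to 12405, 11443, 10450 and 11432.0 CPM. The 5 brown fat markers had the order of Cox7a1, with sums of 58.0, 67.2, 67.6 and 63.0 CPM, but only Ppargc1a, which other tissues also use, was past the filter. Ucp1, the uncoupling protein that defines brown fat, had 1 count in PBS and 0 in the other libraries. Most colonocyte markers and the tested B and plasma cell markers moved in the direction of Cox7a1 against untreated. In PBS, E. coli and LGG, 5, 5 and 6 of 6 colonocyte markers were above 0 (50.3%, 51% and 49.7% of all genes). In the B and plasma cell list 5 of 5 were above 0 in each. The colonocyte medians were 0.80 for PBS, 0.98 for E. coli and 0.80 for LGG, and those of the B and plasma cell list 0.90, 0.88 and 0.61. The part of other cell types in the level of Cox7a1 was not tested.

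Many promoters of nuclear respiratory genes are known to hold sites for NRF1 and for ETS factors such as GABP, which tie them to a shared regulation. In RefSeq promoter windows (build GRCm38.p6, from 250 bases before to 50 after the start), 78 of the 94 genes were matched. The NRF1 palindrome, made of GCGCA and its reverse complement TGCGC, stood in 7 of them (8.97%), against 1.07% of the windows of all 27025 genes and 2.10% of 10734 other genes tested here. Its 8-base parts GCATGCGC and GCGCATGC, which overlap the palindrome, stood in 12 (15.4%, against 3.05% and 5.50%). The ETS core CCGGAAG stood in 19 (24.4%, against 9.93% and 18.0%). All were searched on both strands; a match is a run of letters and not evidence of binding. The windows with the palindrome belong to Ndufa11, Ndufaf4, Ndufaf5, Uqcrc1, Cox6a1, Atp5g2 and Atp5k. The 250 bases before the start are shown for Cox6a1, which led complex IV in LGG against PBS and holds both kinds of match there, for Atp5k, the ATP synthase gene with the highest ratio for PBS against untreated, and for Cox7a1, which holds neither. The ETS match of Atp5k lies in the bases after the start, which are not printed. Capitals mark the palindrome and the ETS core, the latter read as CTTCCGG on the opposite strand. The stretches are chr5:115348959-115349208 (minus strand) for Cox6a1, chr5:108434400-108434649 (minus strand) for Atp5k and chr7:30183921-30184170 (plus strand) for Cox7a1, each written 5′ to 3′ along the gene.
Cox6a1: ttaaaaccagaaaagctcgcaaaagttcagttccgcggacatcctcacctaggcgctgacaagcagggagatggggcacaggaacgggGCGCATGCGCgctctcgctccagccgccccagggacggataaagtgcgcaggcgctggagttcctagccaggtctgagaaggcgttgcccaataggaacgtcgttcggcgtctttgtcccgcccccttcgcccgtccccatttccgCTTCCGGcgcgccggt
Atp5k: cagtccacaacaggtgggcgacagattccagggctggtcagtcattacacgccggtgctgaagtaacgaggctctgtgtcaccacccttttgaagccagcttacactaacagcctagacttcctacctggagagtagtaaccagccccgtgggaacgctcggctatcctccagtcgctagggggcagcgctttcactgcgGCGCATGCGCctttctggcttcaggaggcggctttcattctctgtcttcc
Cox7a1: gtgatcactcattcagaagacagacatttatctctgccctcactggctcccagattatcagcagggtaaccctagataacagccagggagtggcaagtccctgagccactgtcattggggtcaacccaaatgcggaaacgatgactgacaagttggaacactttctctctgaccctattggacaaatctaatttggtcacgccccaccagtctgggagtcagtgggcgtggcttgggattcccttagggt

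Complex V, the ATP synthase, holds a catalytic head and a membrane rotor driven by protons. Its medians were 0.09 for PBS against untreated, 0.09 for LGG against PBS, 0.01 for E. coli against PBS, 0.09 for LGG against E. coli, 0.21 for LGG against untreated and 0.14 for E. coli against untreated. Atp5b measured 1901 CPM (untreated), 2019 (PBS), 2035 (E. coli) and 2062 CPM (LGG). Atp5a1, the alpha subunit of the head, measured 1595 CPM (untreated), 1646 (PBS), 1661 (E. coli) and 1679.8 CPM (LGG). Both had the highest counts of the list and the narrowest intervals, with untreated the lowest and LGG the highest. The ratio for LGG against untreated was 0.12 (0.10 to 0.13) for Atp5b and 0.07 (0.06 to 0.09) for Atp5a1, the lowest of the complex there. Atp5d and Atp5e, subunits of the central stalk, led the complex in E. coli against PBS (0.12, interval 0.07 to 0.17) and in LGG against PBS (0.17, interval 0.10 to 0.24).

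Small membrane subunits of the ATP synthase were set apart from the head by the step at the untreated library. Atp5k, the e subunit that helps pair ATP synthases into dimers, measured 166 CPM (untreated), 215 (PBS), 199.8 (E. coli) and 217 CPM (LGG). Atp5j2, the f subunit, measured 205 CPM (untreated), 265 (PBS), 257 (E. coli) and 271 CPM (LGG). In both the untreated library was the lowest and LGG and PBS lay within counting error of each other, with ratios for PBS against untreated of 0.37 (0.31 to 0.44) and 0.37 (0.31 to 0.42) and for LGG against PBS of 0.01 (-0.05 to 0.07) and 0.03 (-0.02 to 0.09). Atp5j2 led the complex in LGG against untreated (0.40, interval 0.35 to 0.45) and E. coli against untreated (0.32, interval 0.27 to 0.37). Atp5h, of the peripheral stalk, led in LGG against E. coli, 0.18 (0.14 to 0.23). The 3 genes Atp5g1, Atp5g2 and Atp5g3 encode the same mature c subunit of the rotor ring with different import sequences. Per kilobase Atp5g3 was the highest (732 CPM per kilobase), then Atp5g2 (323) and Atp5g1 (229.6). Atp5g3 gave the lowest ratio of the complex for PBS against untreated (-0.01, interval -0.05 to 0.03), and Atp5g1 the lowest for E. coli against untreated (0.01, interval -0.05 to 0.07). Atp5s and Atp5sl carry the name of the complex but are not subunits of it; Atp5sl, also called Dmac2, takes part in the assembly of complex I. Atp5s gave the lowest ratio for LGG against PBS (-0.03, interval -0.32 to 0.26) and E. coli against PBS (-0.12, interval -0.41 to 0.17), and Atp5sl for LGG against E. coli (-0.03, interval -0.13 to 0.08).

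Over all complexes, the 52 accessory subunits had a median of 0.12 in PBS against untreated and 0.26 in LGG against untreated, and the 22 core subunits 0.02 and 0.15. In LGG against PBS both kinds had nearly the same median, 0.12 and 0.13. The core subunits counted here include none of complex IV, whose 10 accessory subunits had a median of 0.32 in LGG against untreated. Within complexes I, III and V the accessory medians there were 0.22, 0.27 and 0.30 and the core medians 0.14, 0.08 and 0.17. Accessory subunits also have shorter transcripts, with a median listed length of 555 bases against 1294 for core subunits. Length moved with the ratios in most comparisons, inside and outside the list. Across the 90 genes, which share their libraries and depth, Spearman's rho between log2 ratio and length was -0.40 in PBS against untreated, -0.17 in LGG against PBS and -0.60 in LGG against untreated, and across 14360 other genes it was -0.13, -0.33 and -0.36. In LGG against E. coli it was -0.29 for the 90 genes and -0.27 for the others, in E. coli against untreated -0.40 and -0.16, and in E. coli against PBS 0.19 and -0.07. The genes of this system have a median length of 742.5 bases, where all genes tested have 2843.5, and 58 of the 90 are under 1000 bases.

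In LGG against PBS the median for genes under 600 bases was 0.12 for the 34 members and 0.12 for 241 other genes, and from 600 to under 1000 bases it was 0.15 (24 members) and 0.11 (739 others). From 1000 to under 2000 bases it was 0.12 (23 members) and 0.06 (3274 others), and for 2000 bases or more 0.07 (9 members) and -0.03 (10106 others). In this comparison members and other genes under 600 bases thus lay close together, and in the longer bands members lay higher. Other genes with a mean of at least 50 CPM, closer to the members in level, had medians of 0.12, 0.09, 0.07 and -0.02 in these bands. Of them 90.2%, 83.4%, 72.9% and 42.1% were above 0. Among members it was 33 of 34, 23 of 24, 22 of 23 and 8 of 9. LGG against untreated gave medians of 0.29 and 0.20 under 600 bases, 0.19 and 0.17 from 600 bases, 0.16 and 0.09 from 1000 bases, and 0.13 and -0.05 from 2000 bases, for members and other genes in turn. There the other genes of at least 50 CPM had 0.21, 0.20, 0.14 and 0.02, so members from 600 to under 1000 bases lay below them and those from 1000 to under 2000 bases close to them. Of these other genes 98.8%, 94.8%, 85.3% and 54.9% were above 0, and of members 33 of 34, 22 of 24, 22 of 23 and 8 of 9. Under 1000 bases, nearly all abundant genes were thus above 0 in LGG against untreated, inside and outside the list. The share of genes highest in LGG was 54 of 58 members and 55.2% of other genes under 1000 bases, and 25 of 32 members and 21.3% of other genes at 1000 bases or more. These bands were set after length was seen to move with the ratios, and the part of length in the results was not tested.

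**Figure D4:**
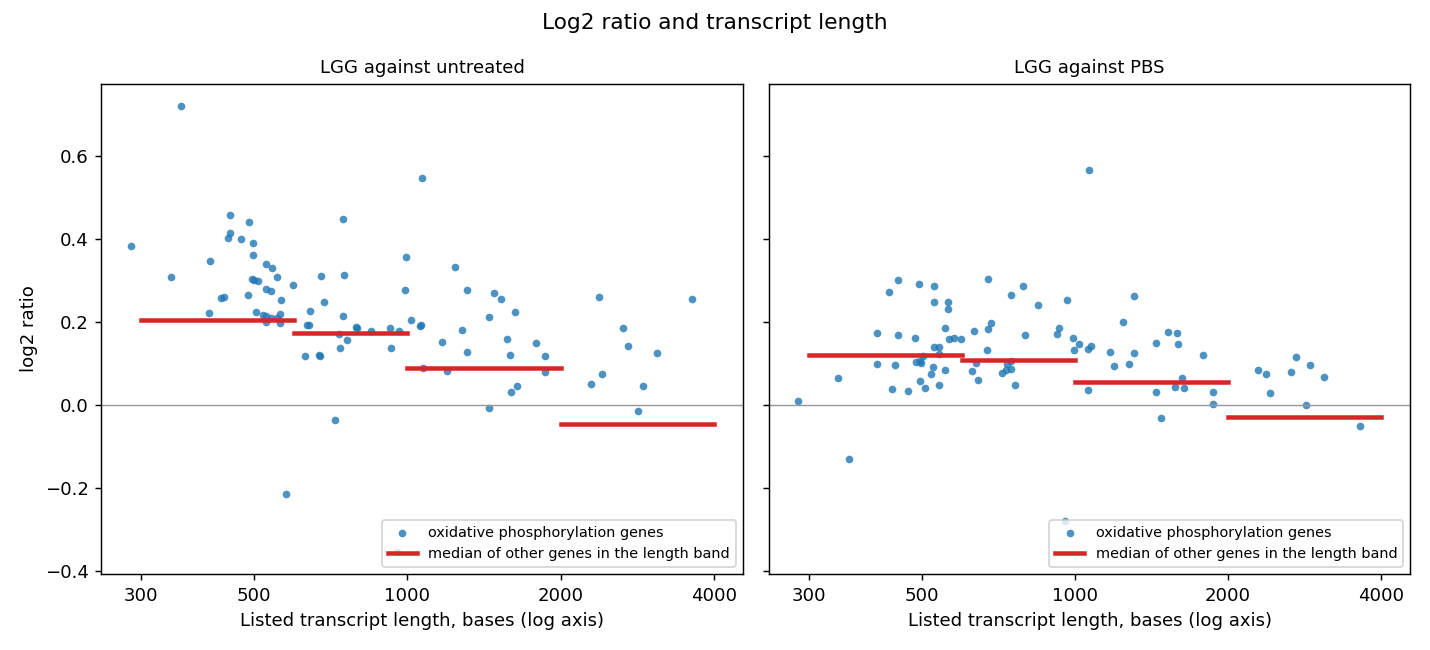
Log2 ratio of each tested gene against its listed transcript length on a log axis, for LGG against untreated and LGG against PBS; red bars are the median of the other genes tested in each length band, and the outer ends of the first and last bars are arbitrary. Short genes lie higher in both panels, and the red bars step down from 0.20 to -0.05 and from 0.12 to -0.03.

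Other mitochondrial genes gave a setting for these values. Among 45 electron carriers and assembly factors with other names, the median was 0.11 in LGG against PBS with 39 above 0 (49.3% of all genes) and 2 past the size rule, both higher (3.08% of all genes), and 0.14 in LGG against untreated. Cox17, the copper chaperone of complex IV, had the highest ratio for LGG against PBS, 0.38 (0.26 to 0.50), with 50.04 CPM in PBS and 65.3 in LGG, and Bcs1l, which inserts the Rieske protein, the lowest, -0.19 (-0.45 to 0.07). The 77 mitochondrial ribosomal proteins had medians of 0.09 and 0.15, with 57 and 67 above 0 (49.3% and 49.7% of all genes), and ranged in LGG against PBS from Mrpl19 (-0.15, interval -0.32 to 0.01) to Mrpl52 (0.37, interval 0.22 to 0.52). The 18 carriers and porins had medians of 0.13 and 0.15. Slc25a20, which brings acylcarnitines into mitochondria for fat oxidation, measured 133 CPM (untreated), 138 (PBS), 173 (E. coli) and 186 CPM (LGG). Both bacterial libraries were higher than untreated and PBS, with 0.43 (0.36 to 0.50) for LGG and 0.33 (0.25 to 0.40) for E. coli against PBS, the highest of the list, and Timm50 was the lowest for LGG against PBS, -0.04 (-0.18 to 0.11).

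The 19 TCA cycle genes had lower medians, 0.06 in LGG against PBS and 0.08 in LGG against untreated, with 0 genes past the rule in the first and 1, higher, in the second (6.48% of all genes). Citrate synthase, Cs, which feeds the cycle, measured 619 CPM (untreated), 811 (PBS), 788 (E. coli) and 731 CPM (LGG) and had the lowest ratio of the list for LGG against PBS, -0.15 (-0.18 to -0.12), while Idh3b had the highest, 0.13 (0.07 to 0.19). The regulators of mitochondrial biogenesis, 21 genes, had medians of 0.06 and 0.02. Of these, the nuclear receptor Esrra, a known activator of respiratory genes, measured 156 CPM (untreated), 181 (PBS), 193 (E. coli) and 207 CPM (LGG) and had the highest ratio for LGG against untreated, 0.41 (0.35 to 0.46); the coactivator Pprc1 had the lowest for LGG against PBS, -0.39 (-0.54 to -0.24). The 80 cytosolic ribosomal protein genes, which are not mitochondrial but also encode short abundant transcripts, had medians of 0.11 in LGG against PBS and 0.16 in LGG against untreated, with 75 and 79 above 0 (49.3% and 49.7% of all genes). They ranged in LGG against PBS from Rpl7l1 (-0.11, interval -0.21 to -0.01) to Rps26 (0.38, interval 0.33 to 0.43). The shift in LGG against PBS thus had nearly the same median in this list as in the oxidative phosphorylation genes, but other comparisons set the lists apart. In E. coli against PBS the ribosomal median was 0.06 with 75 of 80 above 0 (50.7% of all genes), beside 0.01 with 55 of 90 for oxidative phosphorylation. In LGG against E. coli it was 0.04 with 62 of 80 above 0 (49.9% of all genes), beside 0.11 with 84 of 90.

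**Figure D5:**
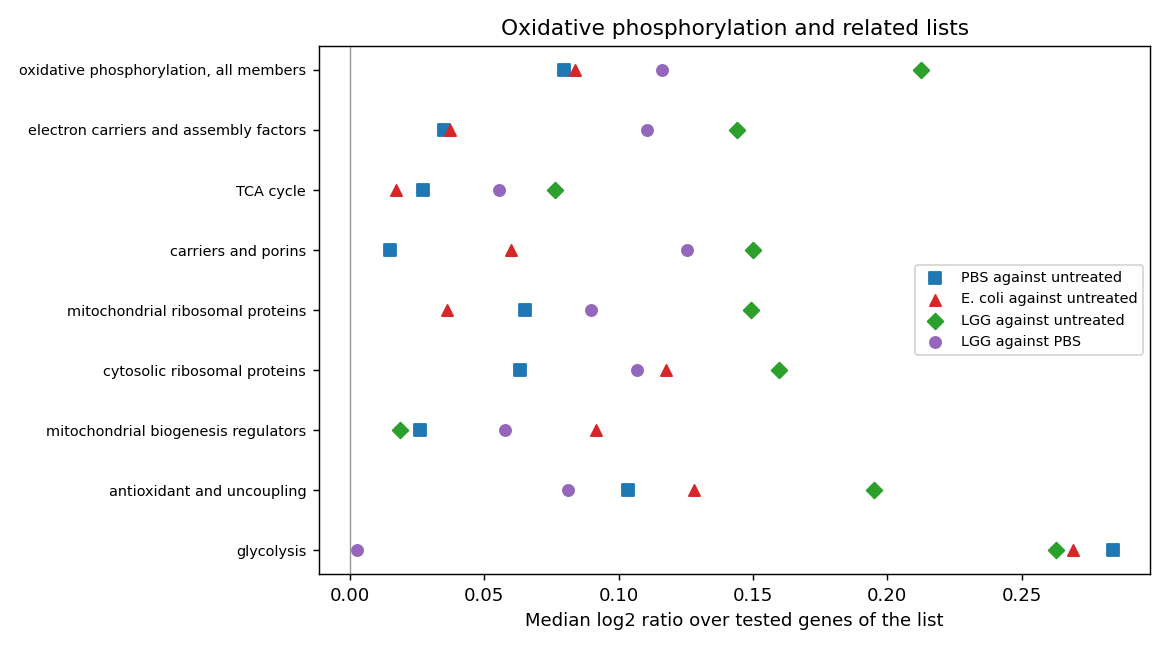
Median log2 ratio over the tested genes of 9 lists in 4 comparisons, marked by symbol. Oxidative phosphorylation stands at 0.12 in LGG against PBS, beside 0.11 for cytosolic ribosomal proteins and 0.00 for glycolysis, which is higher in the comparisons with the untreated library.

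Markers of cell types moved between the same libraries. The 6 colonocyte markers had a median of 0.80 in PBS, 0.98 in E. coli and 0.80 in LGG against untreated, and 0.01 in LGG against PBS, and their summed level was 6312, 8038, 8012 and 8695 CPM in untreated, PBS, E. coli and LGG. Goblet markers summed to 21903, 23699, 23009 and 24381 CPM and had a median of 0.30 in LGG against untreated, with 5 of 6 above 0 (49.7% of all genes). Not every marker followed its list. In PBS and in E. coli against untreated, 1 colonocyte marker lay below 0. There 1 goblet marker was past the size rule in the lower direction (9.1% and 12% of all genes). Smooth muscle markers had a median of -0.23 in LGG against untreated, with 3 of 7 above 0 (49.7% of all genes). Further lists that stood lower in LGG than in untreated were those of the mesothelium (-1.29, with 0 of 4 above 0), of pericytes (-0.36, 0 of 5) and of neurons and glia (-0.29, 0 of 5). Colonocyte and goblet markers thus had medians above 0, and muscle, mesothelial, pericyte and neural markers medians below 0, in the same comparisons with the untreated library in which the oxidative phosphorylation genes were higher. The 4 proliferation markers had medians of -0.13, -0.15 and -0.19 in PBS, E. coli and LGG against untreated. In each, 2 of 4 were above 0 (50.3%, 51% and 49.7% of all genes) and 2 were past the size rule in the lower direction (9.1%, 12% and 10.8%). In bulk tissue fewer cells of a type and less RNA per cell cannot be told apart, and the part of tissue composition in the results was not tested. Markers of pancreatic acinar cells, a tissue outside the colon, summed to 2.45, 16.6, 62.3 and 34.4 CPM, and those of B and plasma cells to 39.9, 73.0, 69.4 and 52.6 CPM. In LGG against PBS, where the colonocyte and smooth muscle medians were near 0, the mesothelium list had a median of -0.87 with 0 of 4 above 0 and the white fat list 0.48 with 5 of 5 above 0 (49.3% of all genes). In LGG against E. coli these medians were 0.46 and 1.32, with 4 of 4 and 5 of 5 above 0 (49.9% of all genes). The acinar list had 1.04 and -0.91 in these comparisons, and the B and plasma cell list -0.20 and -0.27. Their part in the results was not tested.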

How the data were processed

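The authors deposited 1 table of expected counts per RefSeq gene in steps of 0.5. Its making involved TopHat2, HOMER and build mm9, per the submitters' processing notes; their versions and roles are not stated there. The library kit was Illumina TruSeq RNA, per the labels' protocols. Counts were rounded to whole numbers here. Scaling used TMM factors (edgeR 4.0.16, R 4.3.3) of 1.05 (untreated), 0.985 (PBS), 0.989 (E. coli) and 0.979 (LGG). Log2 ratios had a prior of 0.5 counts, adjusted to depth, and exact conditional binomial (Clopper-Pearson) 95% intervals. Since PCR copies cannot be told from molecules without identifiers, the intervals and the limit of 3 counts cover counting error only. Medians and counts were taken over 14450 genes with a mean CPM of at least 1. Python 3.11.15, numpy 2.4.6, scipy 1.17.1, pandas 2.3.3 and matplotlib 3.10.9 were used. With 1 library per group, conditions were not tested against each other and there are no p-values.

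The genes named were core subunits (1 of them is not reported here), isoform pairs, the highest and lowest member of each complex in each comparison, those past the 2-fold rule, those under the filter, and the highest or lowest members of the related lists; the remaining genes past the size rule, and a few genes beside them, were named after their values were seen. Members and lists were chosen with earlier results of these data known. Alternatives were other scalings (among them DESeq2 1.42.0 size factors), filters, priors, thresholds, row and member choices. The ratios and intervals were also run on simulated Poisson counts, the model that the intervals assume. That run checks the code and says nothing about variation between mice or libraries. All 94 rows are listed with 1 copy in the genome; 12 overlap another row (11 of them tested), and reads there cannot be assigned with certainty.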

Additional observations from a re-analysis of the deposited data

How the results depend on the processing

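Most of what depended on the processing was the scaling of the untreated library. With library totals the median was -0.0103 in PBS against untreated, -0.000425 in E. coli against untreated and 0.11 in LGG against untreated. Members above 0 numbered 41 and 45 in the first and second of these, and members past the size rule 1, 1 and 5, without shares of all genes, which were taken with TMM factors only. Complex IV then had a median of -0.000197 in PBS against untreated, and complexes II and III had -0.018 and -0.011 in E. coli against untreated. Under that scaling the median of all genes moves by -0.09, -0.08 and -0.10 in PBS, E. coli and LGG against untreated, by its construction. The complex I medians of 0.08 and 0.07 in PBS and E. coli against untreated are smaller than this shift and turn negative too. So do those of complexes II and III in PBS against untreated (0.04 and 0.05). The list lay above all genes by 0.08, 0.08 and 0.21 with library totals as with TMM. Without an expression filter 2 members (Ndufaf6 and Cox8b) were past the rule in LGG against E. coli, and with a mean CPM of at least 5 none was (0) in LGG against PBS and LGG against E. coli, since Ndufaf6 is then not tested. A 2-fold threshold left 0 members in every comparison, and a 1.5-fold threshold left 1 (Cox7a1) in PBS, E. coli and LGG against untreated and 0 in LGG against PBS and LGG against E. coli. With the untreated library as control the median for LGG was 0.21 in place of 0.12. Members of at least 1000 bases gave 0.15 in LGG against untreated, an alternative added once the data had been seen. The median of LGG against PBS ranged from 0.10 to 0.21 and that of LGG against E. coli from 0.09 to 0.12 over all alternatives. The upper end of 0.21 is the alternative with the untreated library as control, which is the median of LGG against untreated. Each median was set against the median half-width of its members' intervals, a wider tolerance than the counting error of the list as a whole. In LGG against PBS it was 0.07, while the list's summed counts gave 0.10 with an interval of 0.099 to 0.111. Single genes had their own half-width, and counts of members 1.5 times. For the whole list 189 values stayed within tolerance, 21 moved further and 2 were labelled reversed. For complexes and named members these were 950, 59 and 3. A reversal was labelled only where a median had exceeded its tolerance, or a gene the size rule, so other changes of sign are among the rest. The row choice (which drops 1 member), no expression filter and a prior of 5 counts each left all 116 values of named members within tolerance. By their construction these alternatives could hardly move those values. No paired analysis was possible because each group has 1 library, and leaving out a replicate was not possible for that reason. Depth limits genes near 1 CPM, such as Cox4i2 and Ndufa4l2, whose intervals span over 1 unit of log2, most of all in the PBS library.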

Other observations

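Glycolysis, the cytosolic pathway that feeds pyruvate to mitochondria, had another pattern than oxidative phosphorylation. Its 18 tested genes had a median of 0.28 in PBS, 0.27 in E. coli and 0.26 in LGG against untreated, with 8, 7 and 5 genes past the size rule in the higher direction, where 6.19%, 7.31% and 6.48% of all genes were. In the lower direction it was 1 gene each in PBS and E. coli against untreated (9.1% and 12% of all genes) and 0 in LGG against untreated (10.8%). In LGG against PBS the median was 0.00. Pgk1, which makes ATP from 1,3-bisphosphoglycerate, measured 402 CPM (untreated), 599 (PBS), 586 (E. coli) and 616 CPM (LGG). Untreated was the lowest and the gavaged libraries lay together, with a ratio of 0.57 (0.53 to 0.61) for PBS against untreated. Hexokinase 2, Hk2, which starts glycolysis, measured 207 CPM (untreated), 300.4 (PBS), 269 (E. coli) and 223 CPM (LGG), and its ratio for LGG against PBS, -0.43 (-0.48 to -0.37), was the lowest of the list. Ldhb, a lactate dehydrogenase subunit of oxidative tissues, measured 30.02 CPM (untreated), 23.7 (PBS), 21.2 (E. coli) and 26.7 CPM (LGG) and was highest in the untreated library.

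The 13 tested mitochondrial antioxidant, chaperone and uncoupling genes had medians of 0.10 in PBS, 0.13 in E. coli and 0.20 in LGG against untreated. The mitochondrial chaperonin Hspe1 measured 69.6 CPM (untreated), 92.3 (PBS), 85.8 (E. coli) and 95.2 CPM (LGG) and had the highest ratio of that list for LGG against untreated, 0.45 (0.37 to 0.54). Ucp2, an inner membrane carrier of the uncoupling protein family, measured 610.1 CPM (untreated), 714 (PBS), 782 (E. coli) and 698 CPM (LGG), with E. coli the highest library and a ratio of -0.16 (-0.19 to -0.14) for LGG against E. coli. Gpx4, which detoxifies lipid peroxides, measured 122 CPM (untreated), 127 (PBS), 119 (E. coli) and 144 CPM (LGG), with LGG the highest and a ratio of 0.27 (0.21 to 0.34) against E. coli.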
